A study of Mus musculus with 18 samples.

Results

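Transcripts of 9 secreted growth factors were followed in cultured mouse astrocytes, a glial cell type of the brain, with and without neurons plated on them. The 9 genes were pleiotrophin (Ptn), midkine (Mdk), angiopoietin 1 (Angpt1), vascular endothelial growth factor A (Vegfa), brain-derived neurotrophic factor (Bdnf), neurotrophin 3 (Ntf3), glial cell line-derived neurotrophic factor (Gdnf), ciliary neurotrophic factor (Cntf) and the platelet-derived growth factor A chain (Pdgfa). They were chosen by name and found in the count table by their Entrez gene numbers, 19242, 17242, 11600, 22339, 12064, 18205, 14573, 12803 and 18590 in the order just given. All 9 were among the 26301 genes of the table, and all 9 were among the 16539 genes that passed the expression filter and were tested. Ptn was taken up because of its low value in the day 2 co-cultures, and Angpt1 because of its values at day 7, so those 2 differences are described here without a test.

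Astrocytes came from the cortex of newborn mice (P0) and were grown for about 2 weeks in serum-containing medium until confluent, then moved to N2 medium, a defined medium without serum. Co-cultures received hippocampal neurons of newborn mice whose cells carry the red fluorescent protein TdTomato, and astrocytes alone received none. After 2, 4 or 7 days the cells were detached and passed through a fluorescence sorter, where plates of astrocytes alone defined the TdTomato-negative gate. That gives 6 groups of 3 libraries: co-cultures at day 2, 4 and 7, and astrocytes alone at day 2, 4 and 7. All groups share the serum expansion and the sort, which sees only TdTomato. Strain, sex and the number of animals behind a culture are not stated in the labels, so p-values measure only the spread between these cultures. The 6 libraries of a replicate number share 1 date in the labels, and a co-culture and an alone library of one number and day are called a pair here. The series title gives the question as which astrocyte transcripts neuronal contact regulates.

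Growth factors of this kind are released by glia, neurons or vessel cells and act on receptors of neighbouring cells, most of them receptor kinases. In the brain they support neuronal survival and synapses (the neurotrophins and the GDNF and CNTF families), guide and stabilise blood vessels (VEGF-A and angiopoietin 1), bind to heparin-like chains of the matrix (pleiotrophin and midkine) and maintain oligodendrocyte precursors (PDGF-A). Astrocytes are a known source of several of them.

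Depth limits what can be read from 2 of the libraries, called doubtful here. Replicate 1 of astrocytes alone at day 2 held 3242459 reads, of which 92.5% fell on a single gene, and replicate 1 of the day 7 co-culture held 8966485 reads, of which 40.5% fell on a single gene. The other 16 libraries held 13950111 to 32623556 reads. Levels are given as CPM, read counts scaled for depth with TMM factors, and 3 reads, taken as the floor, correspond to 20.2 CPM in the first of these 2 libraries, 0.504 CPM in the second and 0.0743 to 0.179 CPM in the others. A value of 0 in the first library therefore does not show a low level. Counting error alone is covered by these floors. The summed CPM of 10 astrocyte markers ran from 1186 to 5618 in the 8 co-culture libraries among the 16 and from 914 to 4751 in the 8 alone libraries, with no marker at 0 in any group. Summed neuron markers (12 genes) ran from 196 to 373 in co-cultures and from 158 to 438 in astrocytes alone. At 0 in every library of a group were Snap25 and Nefm in the day 2 co-cultures, Rbfox3 and Nefl in astrocytes alone at day 2, Nefl and Gad2 at day 4, and Snap25, Nefl, Nefm and Gad2 at day 7. In whole sorted populations such as these, fewer cells of a type and less RNA per cell cannot be told apart.

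None of the 9 growth factors passed the test in any comparison, and neither did any other gene, with edgeR's quasi-likelihood test and Benjamini-Hochberg adjusted p under 0.05 (0% of 16539 genes called at day 2, at day 4, at day 7, over the mean of the days, between day 7 and day 2 in either kind of culture, and for the difference of the co-culture effect between day 7 and day 2). Ptn at day 2 and Angpt1 at day 7 were chosen for their values, so their outcomes there are not read as tests. At an unadjusted p under 0.05, 388 genes (2.35%) stood apart at day 2. Leaving Ptn aside for that reason, Cntf was the only growth factor among them. It passed the expression filter only through alone libraries. The same threshold took 61 genes (0.369%) at day 4 and 1549 genes (9.37%) at day 7, with no growth factor among them. DESeq2 called 22 genes (0.135%) at day 2, 0 genes (0%) at day 4 and 5 genes (0.0308%) at day 7, and no growth factor. The fitted log2 fold change of the 9, co-culture over alone, had a median of -0.25 at day 2 (0.04 over all tested genes), 0.02 at day 4 (-0.01 over all tested genes) and -0.34 at day 7 (0.00 over all tested genes). At day 2, 2 of the 9 were fitted higher, at day 4 it was 5 of 9 and at day 7 it was 3 of 9, beside 53.3%, 48.6% and 50.2% of all tested genes. These medians and counts include Cntf, and Ptn at day 2 and Angpt1 at day 7, chosen for those values, so they are a description only. Without the 2 doubtful libraries and with the replicate number in the model, the medians were -0.15, -0.03 and -0.22. Over all tested genes they were then -0.04, -0.04 and -0.02.

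**Figure D1:**
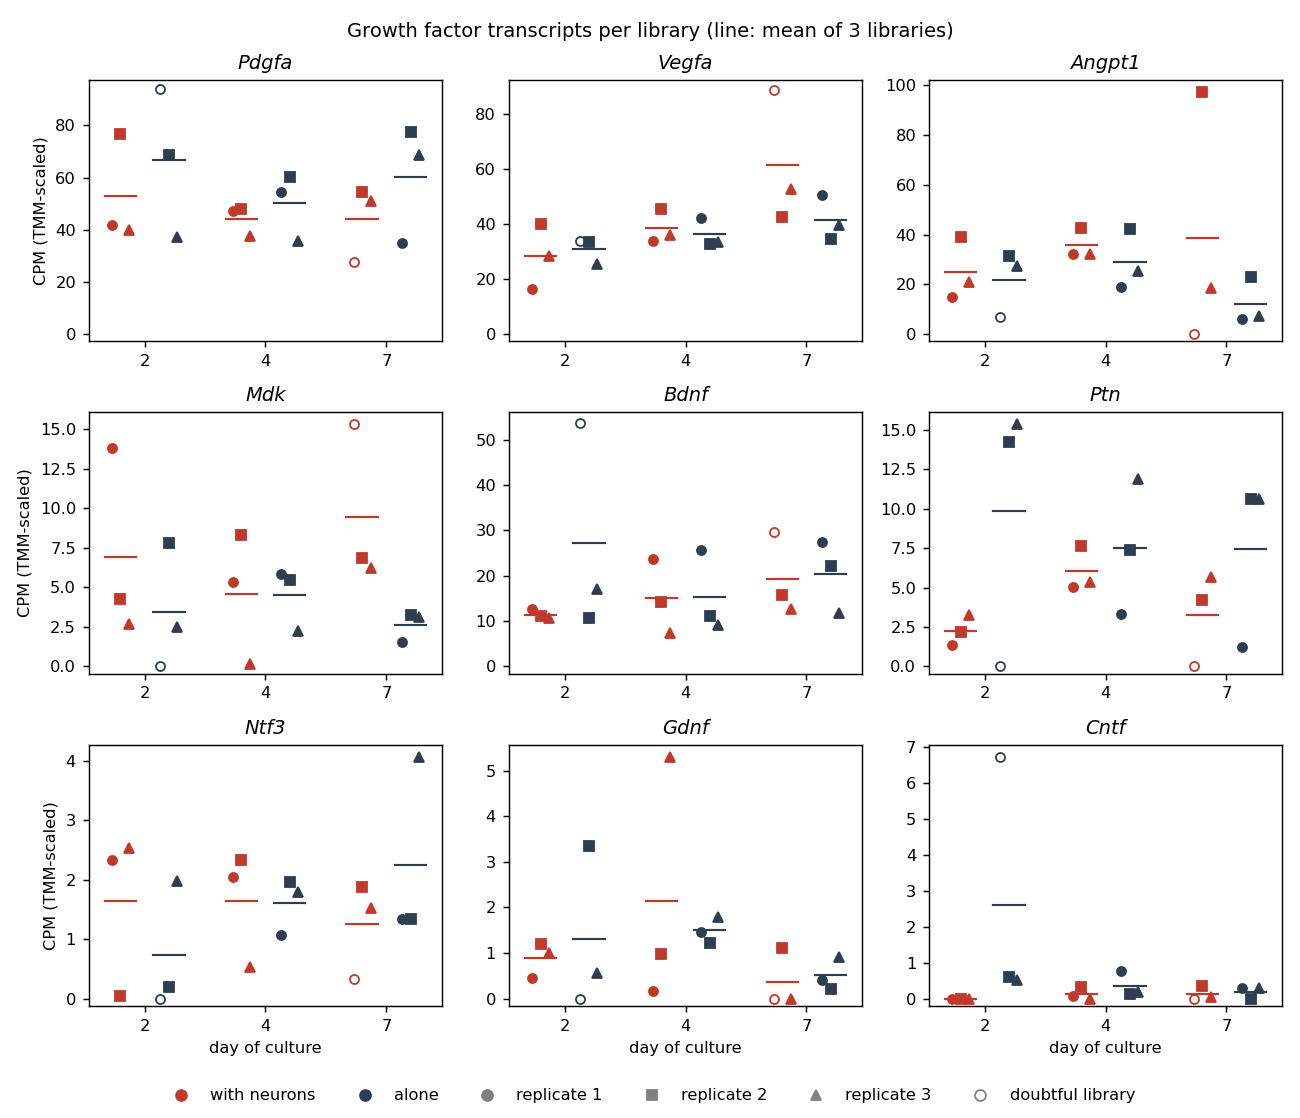
Level of each growth factor transcript (vertical axis, CPM after TMM scaling, a separate scale in each panel) at day 2, 4 and 7 of culture (horizontal axis). Red symbols are co-cultures and dark symbols astrocytes alone, the symbol shape gives the replicate number, open symbols are the 2 libraries of low depth or dominated by 1 gene, and lines are means of 3 libraries. Ptn in the day 2 co-cultures lies between 1.36 and 3.25 CPM, and the single Angpt1 value near the top of its panel, 97.3 CPM, is replicate 2 of the day 7 co-culture.

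The levels of the ligands, set against exon length so that genes can be compared, spanned about 2 orders of magnitude. Over the 16 libraries the median level per kilobase of exon was 15.9 CPM for Pdgfa, 8.23 CPM for Vegfa, 5.07 CPM for Angpt1, 3.61 CPM for Mdk, 2.02 CPM for Bdnf, 1.60 CPM for Ptn, 1.07 CPM for Ntf3, 0.269 CPM for Gdnf and 0.147 CPM for Cntf. Pdgfa, the ligand of oligodendrocyte precursors, was above Vegfa in 15 of 16 libraries, and Vegfa was above Angpt1 in 14 of 16. Lower in the order the neighbours traded places more often: Bdnf exceeded Ptn in 10 of 16 libraries and Gdnf exceeded Cntf in 8 of 16, so these neighbours were not separated beyond their spread. On the scale of log2(CPM + 2), which damps genes of low level, the SD over the 16 libraries was 0.38 for Vegfa and for Pdgfa, 0.49 for Bdnf and 0.70 for Mdk, beside 0.38 for the median tested gene. The SD was 0.88 for Angpt1 and 0.77 for Ptn, which include the values these 2 genes were chosen for. Pearson's r between members on that scale over the 16 libraries, a description of values that share date and library, ran from -0.60 for Bdnf with Gdnf to 0.35 for Mdk with Pdgfa.

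**Figure D2:**
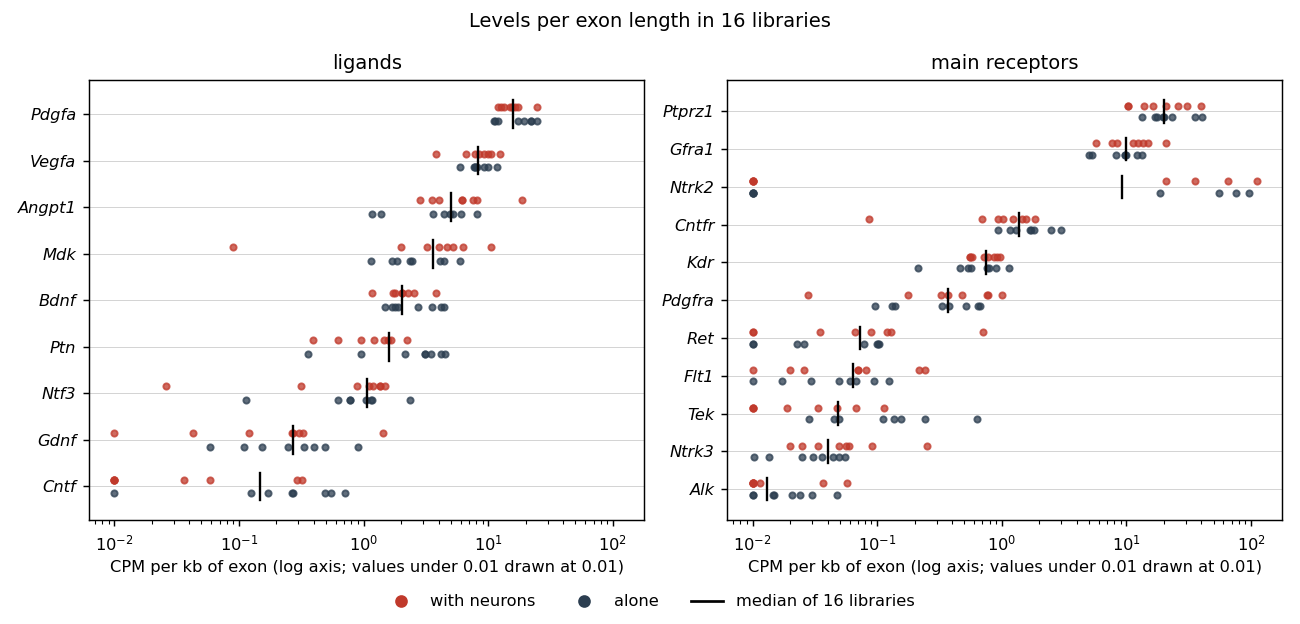
Level per kilobase of exon (horizontal log axis, values under 0.01 drawn at 0.01) of the 9 ligands on the left and of 11 of their receptors on the right, in the 16 libraries. Red points are co-cultures, dark points astrocytes alone and black lines medians. Among the ligands Pdgfa is highest at 15.9 CPM per kilobase, and among the receptors Ptprz1 has a median of 19.9 CPM per kilobase, Ntrk2 is at 0 in 8 libraries and between 18.6 and 112 CPM per kilobase in the other 8, and the medians of Alk, Ntrk3, Tek and Flt1 are all below 0.1 CPM per kilobase.

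Pleiotrophin and midkine are the pair of heparin-binding ligands that act on the receptor phosphatase PTPRZ1 and on the kinase ALK. Ptn was lower in the day 2 co-cultures than in the readable alone libraries of that day. It had 1.36, 2.15 and 3.25 CPM (49, 48 and 82 reads) in co-culture replicates 1 to 3 at day 2, against 14.2 and 15.4 CPM (507 and 410 reads) in replicates 2 and 3 of astrocytes alone. Replicate 1 of astrocytes alone had no read, where 3 reads would be 20.2 CPM. Within the 2 pairs that can be read, co-culture was 0.151 and 0.212 times the alone level. The fitted log2 fold change was -2.40 with all libraries and -2.72 (SE 0.73) with 16, and since Ptn was chosen for this value it carries no test.

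At day 4 the groups overlapped for Ptn: it had 5.05, 7.67 and 5.37 CPM in co-cultures and 3.30, 7.38 and 11.9 CPM in astrocytes alone. Co-culture was the higher library in 2 of 3 pairs, and the fitted log2 fold change was -0.32 (SE 0.99, adjusted p 1.00), and 0.19 without alone replicate 3. At day 7 Ptn had 0, 4.19 and 5.65 CPM in co-cultures and 1.22, 10.6 and 10.6 CPM in astrocytes alone, where the 0 belongs to the shallow replicate 1. Co-culture was lower in 3 of 3 pairs, as for 15.8% of all tested genes, and the log2 fold change was -1.16 (SE 1.00, adjusted p 0.784). The co-culture mean at day 4 was 6.03 ± 1.43 CPM, against 2.25 ± 0.952 CPM at day 2 (SD, n = 3 each). Ptn was chosen for that low day 2 level, so the difference between these days is not read as a change over time. Replicate 1 was the lowest alone library at both day 4 and day 7. With a single alone library per replicate number and day, date, culture and library cannot be told apart. The 250 bases before the annotated start of Ptn (RefSeq, GRCm38.p6) are printed because this gene had the largest day 2 difference among the well-read members, and they hold no match to the 3 motifs searched for on both strands: ACGTG (the hypoxia response core), TGACGTCA (the cyclic AMP response element) and TGANTCA (an AP-1 site).
Ptn, chr6:36810180-36810429, minus strand: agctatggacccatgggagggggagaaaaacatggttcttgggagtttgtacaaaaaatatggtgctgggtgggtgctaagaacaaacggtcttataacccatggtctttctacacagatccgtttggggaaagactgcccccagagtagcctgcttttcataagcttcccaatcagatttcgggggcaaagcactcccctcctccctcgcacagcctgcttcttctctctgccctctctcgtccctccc

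For midkine the day 7 co-cultures lay above the alone libraries. Mdk had 15.3, 6.86 and 6.20 CPM in the day 7 co-cultures, against 1.51, 3.26 and 3.09 CPM in astrocytes alone, so every co-culture library lay above every alone library, as for 4.29% of all tested genes. The fitted log2 fold change was 1.84 (SE 1.00, adjusted p 0.582), and 1.26 (SE 1.03) without the 2 doubtful libraries, so Mdk did not pass the test. Its day 2 values were 13.8, 4.25 and 2.66 CPM in co-cultures and 0, 7.83 and 2.47 CPM in astrocytes alone, with the 0 again in the doubtful library. At day 4 it had 5.30, 8.29 and 0.119 CPM in co-cultures and 5.80, 5.45 and 2.25 CPM in astrocytes alone. The 0.119 CPM in co-culture replicate 3 rests on 2 reads, below the floor, and the groups overlapped at both days. Ptn and Mdk, though close relatives, did not track each other over the 16 libraries (r = -0.12, which includes the day 2 levels Ptn was chosen for). On the reference annotation Mdk overlaps Chrm4, a muscarinic receptor gene with 51 reads in the whole table, and reads of overlapping genes are not told apart where counting ignored strand, which is not stated.

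**Figure D3:**
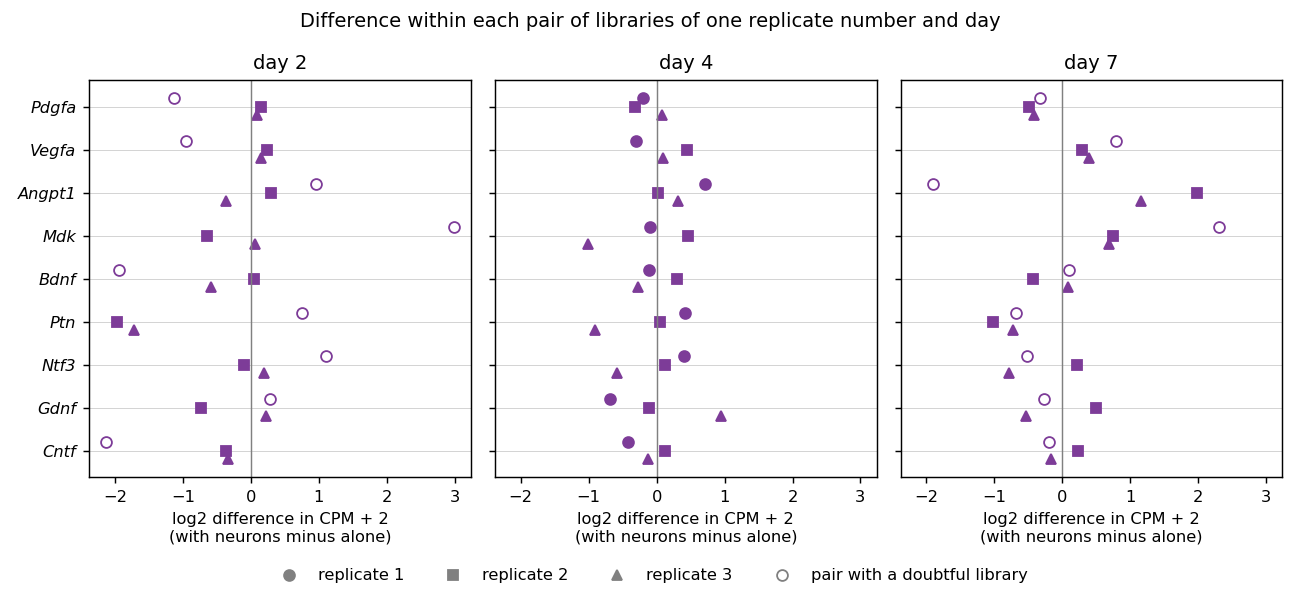
Difference in log2(CPM + 2) between the co-culture and the alone library of one replicate number and day (horizontal axis) for each growth factor, at day 2, 4 and 7. The symbol shape gives the replicate number and open symbols are pairs that hold one of the 2 doubtful libraries. At day 7 all 3 pairs lie below 0 for Ptn and Pdgfa and above 0 for Mdk and Vegfa, while Angpt1 has its open symbol at -1.90 and its other pairs at 1.99 and 1.16.

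The vascular ligands were Angpt1, which stabilises vessels through the endothelial receptor TIE2 (gene Tek), and Vegfa, which drives vessel growth through VEGFR2 (gene Kdr) and also binds VEGFR1 (gene Flt1). Angpt1 had 0.168, 97.3 and 18.5 CPM in the day 7 co-cultures, against 6.10, 23.1 and 7.17 CPM in astrocytes alone. The first of these values is 1 read of the shallow library, and the second is the highest Angpt1 level of all 18 libraries. Within the other pairs co-culture was 4.22 and 2.58 times the alone level. The fitted log2 fold change, for which Angpt1 was chosen and which carries no test, was 1.68 with all libraries and 2.23 with 16. With the library of 97.3 CPM left out it was -0.41, a fit that keeps the library with 1 read, while the remaining readable pair, replicate 3, had 18.5 CPM in co-culture against 7.17 CPM alone. The alone library of that pair belongs to another set of libraries than its partner, as described with Ntrk2.

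The library of 97.3 CPM also had the highest summed level of the 10 microglia and macrophage markers, 405 CPM, against 203 CPM in its alone partner. The 8 fibroblast and meningeal markers summed to 169 CPM in it, not the highest of the libraries, against 109 CPM in its partner. Astrocyte markers summed to 2436 CPM in it and 1856 CPM in its partner. Oligodendrocyte lineage markers (9 genes) went the other way, with 53.7 CPM in it against 403 CPM in its partner, as did neuron markers, with 196 CPM against 295 CPM. The 11 endothelial and mural markers summed to 80.4 CPM in it and 74.3 CPM in its partner, with Cldn5 and Kcnj8 at 0 in every group. The part of these cell types in the Angpt1 level was not tested. At day 4 Angpt1 had 32.1, 42.6 and 32.2 CPM in co-cultures and 18.9, 42.2 and 25.5 CPM in astrocytes alone. Co-culture was higher in 3 of 3 pairs, as for 10.7% of all tested genes, but the groups overlapped and the log2 fold change was 0.31 (SE 0.94, adjusted p 1.00). At day 2 the co-cultures had 14.9, 39.1 and 20.9 CPM and the alone libraries 6.72 (1 read), 31.4 and 27.3 CPM, with a log2 fold change of -0.01 (SE 0.97, adjusted p 1.00). In astrocytes alone replicates 2 and 3 had 23.1 and 7.17 CPM at day 7, against 31.4 and 27.3 CPM at day 2, and replicate 1 cannot be compared, since its day 2 value is 1 read.

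The largest fitted difference of Vegfa was between days of co-culture. At day 2, 4 and 7 it averaged 28.3 ± 11.7, 38.5 ± 6.16 and 61.4 ± 24.2 CPM in co-cultures and 30.8 ± 4.70, 36.2 ± 5.34 and 41.5 ± 8.07 CPM in astrocytes alone (SD, n = 3 each). The day 7 co-cultures had 88.8, 42.6 and 52.8 CPM, against 16.4, 39.8 and 28.5 CPM in the day 2 co-cultures, with no overlap, as for 4.92% of all tested genes. Their log2 fold change, day 7 over day 2, was 1.12 (SE 0.36, unadjusted p 0.00609, adjusted p 0.271), and 0.75 (SE 0.33, adjusted p 0.794) without the 2 doubtful libraries, one of which gave the 88.8 CPM. Over the other settings the adjusted p of this change ran from 0.0762 with DESeq2 to 0.893 with only both groups in the model. Astrocytes alone had 50.4, 34.5 and 39.7 CPM at day 7 and 33.6, 33.5 and 25.4 CPM at day 2, also with no overlap, as for 4.66% of all tested genes, although the 33.6 CPM is 5 reads of the doubtful library, and a log2 fold change of 0.46 (SE 0.38, adjusted p 1.00). The difference between both time changes was 0.66 on the log2 scale (SE 0.52, adjusted p 0.957).

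Against astrocytes alone of the same day, Vegfa in co-culture had log2 fold changes of -0.10 (SE 0.38, adjusted p 1.00) at day 2, 0.09 (SE 0.36, adjusted p 1.00) at day 4 and 0.56 (SE 0.36, adjusted p 0.660) at day 7. All 3 day 7 pairs were higher in co-culture, as for 14% of all tested genes, and the log2 fold change was 0.15 without the 2 doubtful libraries. At day 4 its values were 33.9, 45.5 and 36.0 CPM in co-cultures and 42.3, 32.7 and 33.5 CPM in astrocytes alone, and the groups overlapped. Vegfa is a textbook target of hypoxia signalling, and its 2 RefSeq promoter entries were searched for that reason. The entry printed below holds 1 match to the hypoxia response core, 211 bases before the start of that entry. The match lies on the opposite strand, so the capitals read CACGT. The other entry, chr17:46032378-46032627, lies upstream on the minus strand and holds none. The printed stretch is therefore downstream of another annotated start of Vegfa, and its match does not lie before the first start. The printed stretch may therefore hold exon sequence of longer Vegfa transcripts, and whether its match falls in an exon was not examined. Sites further than 250 bases before a start were not searched, so an entry without a match shows nothing about them. The core occurs in 16.6% of 32851 mouse promoters of this length, so a match is a description only.
Vegfa, chr17:46025164-46025413, minus strand: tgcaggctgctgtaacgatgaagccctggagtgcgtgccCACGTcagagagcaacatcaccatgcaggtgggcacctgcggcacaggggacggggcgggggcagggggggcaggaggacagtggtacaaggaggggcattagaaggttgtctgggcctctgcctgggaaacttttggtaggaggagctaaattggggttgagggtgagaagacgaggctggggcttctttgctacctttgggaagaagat

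The neurotrophins differed in level by an order of magnitude. Bdnf, the ligand of the kinase TRKB (gene Ntrk2) that supports neuronal survival and synaptic change, had 12.6, 11.0 and 10.7 CPM at day 2, 23.8, 14.2 and 7.28 CPM at day 4 and 29.6, 15.8 and 12.6 CPM at day 7 in co-cultures. Astrocytes alone had 53.8 (8 reads), 10.6 and 17.0 CPM at day 2, 25.8, 11.1 and 9.21 CPM at day 4 and 27.4, 22.1 and 11.8 CPM at day 7. The groups overlapped at every day. Log2 fold changes, co-culture over alone, were -0.92 (SE 0.64) at day 2, -0.03 (SE 0.58) at day 4 and -0.08 (SE 0.58) at day 7, with adjusted p of 1.00, 1.00 and 0.992. Without the 2 doubtful libraries the day 2 value was -0.27 and the day 7 value -0.55. The alone mean at day 2 was 27.1 CPM with the 8 reads of the doubtful library and 13.8 CPM without it. In co-cultures every day 7 library was above every day 2 library, although the lowest of day 7 and the highest of day 2 both round to 12.6 CPM. No overlap in this direction was seen for 4.92% of all tested genes, and the log2 fold change was 0.75 (SE 0.59, adjusted p 0.609), and 0.31 without the shallow library of day 7.

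Ntf3, the ligand of TRKC (gene Ntrk3), was low in all groups. It had 2.33, 0.0448 and 2.54 CPM at day 2, 2.05, 2.33 and 0.537 CPM at day 4 and 0.336, 1.88 and 1.53 CPM at day 7 in co-cultures. The alone libraries had 0, 0.196 and 1.98 CPM at day 2, 1.07, 1.96 and 1.79 CPM at day 4 and 1.34, 1.34 and 4.07 CPM at day 7. At day 2 replicate 2 had 1 read in co-culture and 7 reads alone while replicate 3 had 64 and 53 reads, and no day separated the groups. The log2 fold changes were 0.69 (SE 1.26) at day 2, 0.03 (SE 1.16) at day 4 and -0.82 (SE 1.17) at day 7, none past the test. The day 2 value was 3.08 without alone replicate 3 and -0.05 without alone replicate 2, the day 4 value ran from -0.30 to 0.45 with 1 library left out, and the day 7 value was -0.07 without alone replicate 3.

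Gdnf and Cntf, both named for their support of neurons, were the least abundant. Gdnf, which acts through the co-receptor GFRA1 and the kinase RET, had 533 reads in the 18 libraries together. It stood at 0.443, 1.21 and 0.991 CPM at day 2, 0.158, 0.986 and 5.31 CPM at day 4 and 0, 1.11 and 0 CPM at day 7 in co-cultures. Astrocytes alone had 0, 3.34 and 0.562 CPM at day 2, 1.47, 1.23 and 1.79 CPM at day 4 and 0.407, 0.214 and 0.902 CPM at day 7. The highest value, 5.31 CPM from 89 reads, was replicate 3 of the day 4 co-culture, where the alone partner had 1.79 CPM. The groups overlapped at every day, with log2 fold changes of -0.98 (SE 1.48), 0.52 (SE 1.40) and -0.34 (SE 1.42) at day 2, 4 and 7. These signs rest on single libraries: the day 2 value was 0.72 without alone replicate 2 and the day 4 value -1.38 without co-culture replicate 3. The day 7 value was 0.10 and 0.20 without co-culture replicate 1 or 3 and 0.37 without alone replicate 3, and without co-culture replicate 2 no Gdnf read is left in that group.

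Cntf, a cytokine of the interleukin 6 family that acts through CNTFR, was not detected in the day 2 co-cultures. These 3 libraries had 0 reads, while the alone libraries of day 2 had 1 read in the doubtful replicate 1 and 0.589 and 0.524 CPM in replicates 2 and 3. Summed over the day 2 libraries among the 16, that is 0 reads in 3 co-cultures against 35 reads in 2 alone libraries. It is at least 15.7-fold lower if the floor of 3 reads is taken over the co-culture group. Every co-culture library was below every alone library, as for 2.27% of all tested genes, and lower in 3 of 3 pairs, as for 8.48%, where the first pair rests on the 1 read of the doubtful library. Cntf passed the expression filter only through alone libraries, with 21 and 14 reads at day 2 and 25 reads at day 4. Its shares and p-values therefore depend on the kind of culture where it is high, and are a description only. The unadjusted p was 0.00405 and the adjusted p 1.00, so Cntf did not pass the test, and the adjusted p stayed between 0.191 and 1.00 under the other settings. The later days did not show the gap. At day 4 Cntf had 0.0631, 0.314 and 0 CPM in co-cultures and 0.764, 0.133 and 0.183 CPM in astrocytes alone, and at day 7 it had 0, 0.347 and 0.0392 CPM in co-cultures and 0.290, 0 and 0.284 CPM in astrocytes alone. The difference of the co-culture effect between day 7 and day 2 had an unadjusted p of 0.0147 and an adjusted p of 0.891. In all, Cntf had 24 reads in the 9 co-cultures and 85 reads in the 9 alone libraries. On the reference annotation Cntf overlaps Gm44505, which had 0 reads, and Angpt1 overlaps Gm41313, which has no count. The limit on overlapping genes given for Mdk holds for both. The promoter entry of this gene is shown because the gene had no read in the day 2 co-cultures, and it holds 1 match to the AP-1 site, in capitals, 245 bases before the start, a motif found in 6.75% of promoters of this length.
Cntf, chr19:12765633-12765882, minus strand: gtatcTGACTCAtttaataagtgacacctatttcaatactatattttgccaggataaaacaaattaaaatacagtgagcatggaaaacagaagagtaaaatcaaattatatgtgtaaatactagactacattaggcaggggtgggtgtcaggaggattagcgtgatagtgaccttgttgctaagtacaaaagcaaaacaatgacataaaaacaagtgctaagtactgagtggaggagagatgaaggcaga

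Pdgfa, which through the receptor PDGFRA maintains oligodendrocyte precursors, had the highest median level of the 9. It had 41.7, 76.9 and 39.9 CPM at day 2, 47.1, 48.0 and 37.7 CPM at day 4 and 27.4, 54.4 and 51.0 CPM at day 7 in co-cultures. Astrocytes alone had 94.1 (14 reads), 68.8 and 37.3 CPM at day 2, 54.4, 60.2 and 35.6 CPM at day 4 and 34.8, 77.5 and 68.6 CPM at day 7. All 3 day 7 pairs were lower in co-culture, the direction that 15.8% of all tested genes took in all 3, yet the groups overlapped. The log2 fold changes were -0.25 (SE 0.42, adjusted p 1.00) at day 2, -0.18 (SE 0.40, adjusted p 1.00) at day 4 and -0.44 (SE 0.40, adjusted p 0.801) at day 7. In the RefSeq promoter set, 7 of the 9 growth factors have entries, 17 in all, of which 5 hold the hypoxia response core, 2 the AP-1 site and 0 the cyclic AMP response element, which 1.55% of promoters hold.

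A list of 47 further ligands and receptors of these families was matched in full, and 42 of them were tested. None was called, higher or lower, in any comparison. Their median log2 fold change, co-culture over alone, was 0.00 at day 2, -0.08 at day 4 and -0.13 at day 7, beside 0.04, -0.01 and 0.00 over all tested genes. Of the 11 main receptors, Ptprz1, the phosphatase that binds pleiotrophin and midkine, had a median level per kilobase of 19.9 CPM and Gfra1, the co-receptor of GDNF, of 9.83 CPM. Ntrk2 has no place in this order, since 8 of the 16 libraries had no read of it. In the other 8 its level per kilobase ran from 18.6 to 112 CPM, above that of Ptprz1 in each of these libraries (13.9 to 40.6 CPM). Ptprz1 averaged 261 ± 155 CPM at day 2, 366 ± 177 CPM at day 4 and 201 ± 146 CPM at day 7 in co-cultures (SD, n = 3 each), and its log2 fold changes against astrocytes alone were -0.15 (SE 0.57), 0.03 (SE 0.56) and -0.58 (SE 0.56).

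Several of the kinases that the 9 ligands act on had low levels in these cells. Over the 16 libraries the median levels per kilobase were 0.0723 CPM for Ret, 0.0642 CPM for Flt1, 0.0483 CPM for Tek, 0.0400 CPM for Ntrk3 and 0.0130 CPM for Alk, and Alk did not pass the expression filter. This order depends on the exon lengths, which join the exons of all transcripts and reach 30170 bases for Ntrk3. Not divided by length, the medians were 1.21 CPM for Ntrk3, 0.867 CPM for Flt1, 0.489 CPM for Ret, 0.228 CPM for Tek and 0.101 CPM for Alk. Kdr, at 0.744 CPM per kilobase, and Pdgfra, at 0.372 CPM per kilobase, were higher but still far below Ptprz1. Cntfr stood at 1.38 CPM per kilobase and Il6st, the signal-transducing chain it shares with other cytokines, at 39.1 CPM per kilobase. Tek was the main receptor with the smallest unadjusted p at day 2: it had 0, 0 and 0.317 CPM in co-cultures, against 0, 2.97 and 0.524 CPM in astrocytes alone (log2 fold change -3.83, SE 1.81, unadjusted p 0.0481, adjusted p 1.00). The alone 0 belongs to the doubtful library, and the 2.97 CPM is 106 reads of replicate 2, beside 14 reads in replicate 3. Tek was singled out here by its p and passed the expression filter mainly through alone libraries, so that p is a description only. Cntfr had 3.43, 2.60 and 2.86 CPM in the day 2 co-cultures and 33.6 (5 reads), 8.36 and 2.58 CPM in astrocytes alone, a log2 fold change of -1.94 (SE 1.12, adjusted p 1.00).

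Ntrk2, the receptor of Bdnf, could not be compared. It had no read in 8 of the 16 libraries and 11741 to 71965 reads in each of the other 8. The 8 libraries without a read were all 6 of replicate 2 and, of replicate 3, the day 7 co-culture and the day 2 alone library, so the pairs of replicate 3 at day 2 and day 7 are split by it. The labels do not state whether one annotation was used for counting all libraries. The differences within these split pairs, those of Ptn at day 2 and of Angpt1, Mdk and Vegfa at day 7 among them, compare libraries that may have been counted differently. In all, 19 genes had 0 reads in these 8 libraries and at least 100 reads in each of the others, none of them one of the 9 growth factors. Pgk1, a glycolysis gene of the hypoxia list, also followed this split, with 19.6 to 49.8 CPM in the 8 libraries and 111 to 202 CPM in the other 8. Among the growth factors the 2 sets of libraries overlapped, Angpt1 having a median of 35.2 CPM in the libraries without Ntrk2 reads and 19.9 CPM in those with them. Ptn had medians of 7.52 CPM without and 4.17 CPM with Ntrk2 reads, and Vegfa 37.2 CPM without and 35.0 CPM with them. With this set as a term in the model of 16 libraries, the log2 fold change of Ptn at day 2 was -2.50, that of Angpt1 at day 7 was 1.72, that of Mdk at day 7 was 0.96 (SE 1.15, adjusted p 1.00) and that of Vegfa at day 7 was 0.02 (SE 0.37, adjusted p 1.00). Among the 16, all alone libraries of day 2 and all co-cultures of day 7 lacked Ntrk2 reads. Set and kind of culture are therefore partly confounded at these days, and the term cannot fully separate them. The values of Ptn and Angpt1 here, and their medians by set, include those these genes were chosen for and carry no test. The pairs of replicate 2, which lie within one set, had 2.15 CPM of Ptn in co-culture against 14.2 CPM alone at day 2, 97.3 CPM of Angpt1 in co-culture against 23.1 CPM alone at day 7, and 6.86 CPM of Mdk in co-culture against 3.26 CPM alone at day 7.

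Because Vegfa is a hypoxia-inducible gene, 15 further targets of hypoxia signalling were followed beside it, of which 14 were tested and none was called. Their median log2 fold change, co-culture over alone, was 0.01 at day 2, 0.13 at day 4 and 0.12 at day 7. Slc2a1, the main glucose transporter of astrocytes and vessels, had log2 fold changes of -0.14 (SE 0.41), 0.57 (SE 0.39) and 0.10 (SE 0.39) at day 2, 4 and 7. Adm, which encodes the vasodilator adrenomedullin, had 0.47 (SE 0.68), 0.12 (SE 0.65) and 0.36 (SE 0.66) at these days, and none of these passed the test. Bnip3, a mitochondrial protein gene, had 48.9, 11.6 and 8.20 CPM in the day 7 co-cultures, against 11.9, 8.88 and 12.6 CPM in astrocytes alone. The 48.9 CPM belongs to the shallow library, and the log2 fold change was 1.03 with all libraries (SE 0.59, adjusted p 0.607) and -0.19 without that library. Between day 7 and day 2 in co-culture, where Vegfa had a log2 fold change of 1.12, the median of the 14 was -0.20, beside 0.03 over all tested genes. In 16 libraries with the replicate block Vegfa had 0.75 in this comparison, and the median of the 14 was -0.0040, beside 0.06 over all tested genes.

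**Figure D4:**
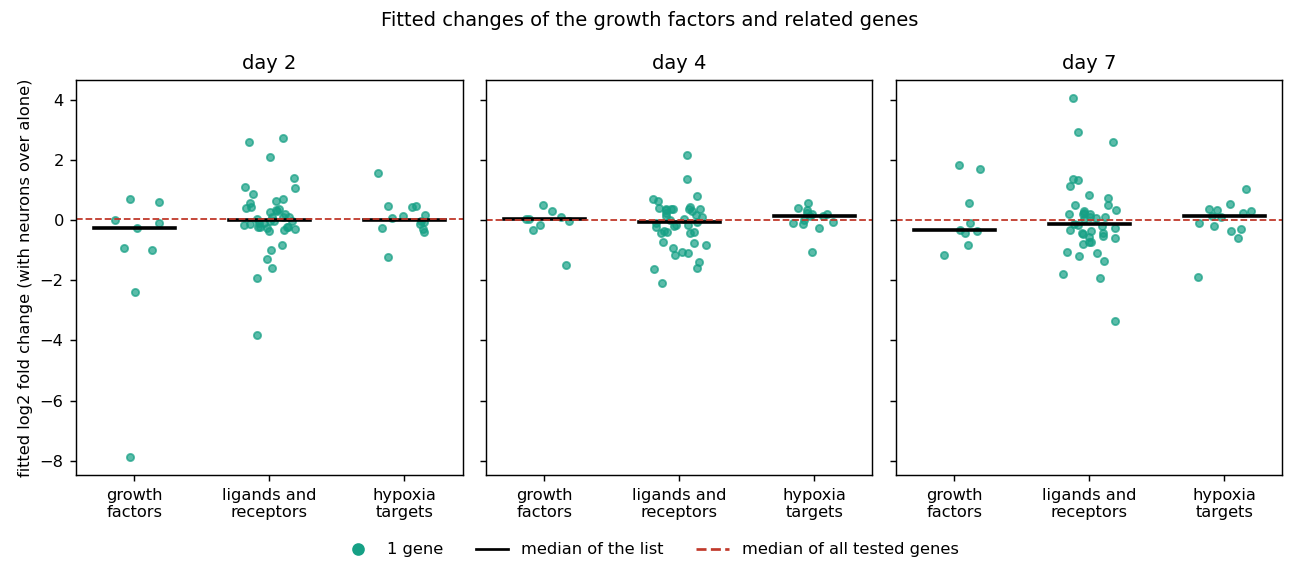
Fitted log2 fold change, co-culture over alone (vertical axis), of each tested gene of 3 lists at day 2, 4 and 7: the 9 growth factors, 42 further ligands and receptors and 14 hypoxia targets. Points are genes, black lines list medians and the red dashed line the median of all 16539 tested genes. The lists centre near 0, between -0.34 and 0.13, and the lowest point at day 2 is Cntf, whose co-cultures had no read.

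The genes whose levels most resembled those of 3 growth factors were taken by Pearson's r of log2 CPM over the 16 libraries among at least 9911 genes with a mean log2 level of 3 or more, a description of libraries that share dates and depth. For Ptn they were Dbi, an acyl-CoA binding protein gene (r = 0.83), Spag7 (0.83) and Etfa, a mitochondrial electron transfer gene (0.81). For Angpt1 they were Neto2 (0.90), Cp, which encodes the copper-carrying ferroxidase ceruloplasmin (0.90), and Sema3c, a secreted guidance factor (0.86). Those of Vegfa were Ing5 (0.80), Dcun1d3 (0.80) and Ccdc122 (0.79). The r values of Ptn and Angpt1 include the levels these genes were chosen for, and all of them run over both sets of libraries split by Ntrk2.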

How the data were processed

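RNA was sequenced from 18 libraries, 6 groups of 3. The authors deposited whole-number read counts per gene, made with Subread and featureCounts on the mouse build mm9, per the submitters' processing notes. Per the labels' protocols, total RNA was depleted of ribosomal RNA (RiboGone), and SMARTer low-input libraries were sequenced in pools of 6. Versions, and any use of strand in counting, were not given in the sources used here. The table also holds 17 columns of correlations, which were not used.

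Columns were matched to samples by name, and genes to symbols by Entrez number with RefSeq (24191 of 26301 matched). Exon lengths (GENCODE M21) and promoters are of GRCm38, not mm9, so no coordinates of genes were taken from the counts' build. The exon length of a gene is the union of the exons of all its annotated transcripts. The 250 bases before each annotated start were searched for 3 motifs.

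In R 4.3.3, edgeR 4.0.16 fitted the 6 groups in one model of 18 libraries with a common estimate of the spread (filterByExpr, TMM scaling, quasi-likelihood F test, Benjamini-Hochberg adjusted p under 0.05 over 16539 genes). The procedure was also run on simulated counts, whose outcome is not reported here. The median biological coefficient of variation, the spread between libraries of a group, was 0.57. With 3 libraries per group a gene that was not called may still differ. CPM are TMM-scaled, differences within pairs use log2(CPM + 2), and floors are 3 reads. Replicate numbers share a date in the labels and so pair the samples. Within pairs, the libraries' deviations from their group's mean correlated at 0.128 to 0.549. The model with the replicate block was an alternative, beside DESeq2 1.42.0, other scalings and filters, the groups compared alone, 16 libraries, and leaving out each library. The set of 8 libraries without Ntrk2 reads as a term was added after seeing the data.

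The 9 genes, the lists and the rule for naming genes were chosen with earlier results of these data known. The rule names all 9, 11 main receptors, 3 hypoxia genes, any called list gene and the 3 genes most like Ptn, Angpt1 and Vegfa. Chrm4, Gm44505, Gm41313, Pgk1, Il6st, Cldn5, Kcnj8 and the neuron markers at 0 were named outside this rule, after the values were seen.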

Additional observations from a re-analysis of the deposited data

How the results depend on the processing

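No growth factor was called under any alternative tried, where Ptn at day 2 and Angpt1 at day 7 are not read as tests. Among 560 values under other settings the 9 kept their sign in 516, and among 1134 values with 1 library left out in 1065, with lowest adjusted p of 0.0762 and 0.0884, both for Vegfa between day 7 and day 2 of co-culture. The number of genes called, 0 in each comparison, became 1 at day 7 and 1 between day 7 and day 2 of co-culture with the replicate block. With 16 libraries and the replicate block it became 16 at day 2, 18 at day 7, 17 between day 7 and day 2 in each kind of culture and 23 for the difference of the co-culture effect, and the genes called included Ntrk2 in each of these. In that setting Ptn at day 2 had a log2 fold change of -2.33 and Angpt1 at day 7 of 1.90, the values these genes were chosen for. DESeq2 called 22 genes at day 2, 5 at day 7, 248 between day 7 and day 2 of co-culture, 3 in astrocytes alone and 3 for the difference of effects. Leaving out any 1 library, another scaling or filter, the groups compared alone, 16 libraries and the library set as a term changed none of these counts. With upper-quartile scaling the median fold change over all genes moved by -0.15 log2 units at day 7 and -0.11 at day 2. Mdk at day 7 ran from 0.96 to 2.02 and Vegfa at day 7 from 0.02 to 0.72, both higher in co-culture throughout. The cause of the changed counts was not tested.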
